A study of Mus musculus with 4 samples.

Results

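The insulin-like growth factor (IGF) system was followed through 10 genes: the binding proteins Igfbp2, Igfbp3, Igfbp4, Igfbp5, Igfbp6 and Igfbp7, the ligands Igf1 and Igf2, and the receptors Igf1r and Igf2r. Every probe set whose only platform symbol was one of these names was taken, which gave 23 probe sets of the 20380 with a single symbol, and 10 genes of 12393. All 10 genes had at least 1 probe set, and 7 of them had several. Values are log2 intensities, on which a difference of 1 is a doubling of signal, and a probe set is called dim below 5.40, the 40th percentile of all probe sets.

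Stem cells of the hair follicle were sorted from back skin of female CD1/C57BL/6 mice at about postnatal day 60, on CD34, on integrin α6 and on the yellow fluorescent protein YFP. Conditional knockouts (cKO) of Tbx1, a T-box transcription factor gene, gave 1 array in set 2 and 1 in set 1, and wild type (WT) mice gave 1 array in each set as well, so that each genotype had 2 arrays. All 4 samples carry a protocol of wax depilation 48 h before harvest, while a second label calls set 2 activated and set 1 quiescent, so each set goes by its number here. The sources used here do not give the promoter that drove the deletion, the origin of YFP or the number of mice behind an array, and p-values cover the spread of these 4 samples alone, part of which may be technical. With 2 arrays against 2, an exact permutation test of 1 value cannot give a p below 0.333.

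IGF1 and IGF2 are secreted growth factors that act through IGF1R, a receptor tyrosine kinase that signals to PI3K and AKT. IGF2R, also the cation-independent mannose 6-phosphate receptor, takes IGF2 into the cell for breakdown in the lysosome and sorts lysosomal enzymes. The IGF binding proteins hold the ligands with high affinity, prolong their life and limit or localise their access to the receptor, and proteases that cut them set the ligands free. IGFBP7 is a relative that binds IGFs weakly. In skin, IGF1 comes largely from dermal fibroblasts and the dermal papilla, and keratinocytes carry the receptor.

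Most of the system differed little between genotypes in these sorted cells, and no member passed the test. Igfbp6 and Igfbp2 read at least 1.5-fold higher in cKO within both sets, Igfbp2 close to background. Igfbp3 was higher in cKO in set 2 and lower in cKO in set 1. Igf1 and Igf2 were dim on all 4 arrays, while Igf1r and Igf2r each had signal above the limit.

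The promoters of the 3 binding protein genes with the widest differences within both sets are shown, as the 250 bases before the annotated start in RefSeq on GRCm38.p6, written 5′ to 3′ on the strand of the gene. Capitals mark matches to a GC box (GGGCGG) or a TATA box (TATAAA), on either strand. The windows are chr15:102143936-102144185 (+ strand) for Igfbp6, chr1:72824230-72824479 (+ strand) for the outermost of the 2 Igfbp2 starts, and chr11:7213924-7214173 (- strand) for Igfbp3, whose gene interval reaches further upstream.
Igfbp6: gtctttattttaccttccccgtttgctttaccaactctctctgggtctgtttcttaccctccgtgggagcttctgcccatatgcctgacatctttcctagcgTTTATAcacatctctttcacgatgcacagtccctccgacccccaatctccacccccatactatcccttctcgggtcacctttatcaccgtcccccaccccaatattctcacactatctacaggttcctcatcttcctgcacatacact
Igfbp2: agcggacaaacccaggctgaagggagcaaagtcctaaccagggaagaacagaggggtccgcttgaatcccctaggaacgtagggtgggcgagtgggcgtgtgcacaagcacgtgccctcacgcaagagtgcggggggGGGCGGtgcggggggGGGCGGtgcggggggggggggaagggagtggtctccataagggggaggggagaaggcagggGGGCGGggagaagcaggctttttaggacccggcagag
Igfbp3: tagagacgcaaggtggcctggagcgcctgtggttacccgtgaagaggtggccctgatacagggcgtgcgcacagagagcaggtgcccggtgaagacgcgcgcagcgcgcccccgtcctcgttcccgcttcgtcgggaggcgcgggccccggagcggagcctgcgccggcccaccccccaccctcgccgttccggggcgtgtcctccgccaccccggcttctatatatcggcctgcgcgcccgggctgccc

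The windows differed in these letters. Igfbp2 held 3 GC boxes, at bases -113, -98 and -37 counted back from the start, and 67.2% G and C. Igfbp6 held no GC box and 1 TATA box, at base -148 on the opposite strand. Its 49.6% G and C was near the median of 52.4% over 32851 promoter windows of the same length. Igfbp3 held neither motif in these exact letters and had 73.2% G and C, with 32 CG pairs against a median of 6. Among the 14 windows of the member genes, 6 held a GC box, which 32.7% of all windows hold. A TATA box stood in 2 of them, Igfbp4 and Igfbp6, and in 12.4% of all windows. A T-box motif (AGGTGTGA) and a forkhead motif (GTAAACA) were searched on both strands and stood in 0 of the 14 windows, and in 1.12% and 3.17% of all windows. The absence covers these letters in these windows only.

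The arrays were alike in their medians, which lay between 6.36 and 6.38. Tbx1, the targeted gene, read 8.88 and 9.54 on the cKO arrays of set 2 and set 1, against 10.37 and 10.53 on the WT arrays. Of 13 bulge and basal keratinocyte markers, 12 were above the dim limit, Krt5 and Cd34 among them, and Fgf18 was dim on all 4 arrays. Of 15 endothelial markers, 13 had both cKO values under both WT values, as 16% of all genes did, with summed linear intensities of 431 and 426 in cKO and 1436 and 1953 in WT. limma called 2 of the 15 lower in cKO, Plvap and Selp, against 4 of all 12393 genes. Several were well above the limit in WT and dim in cKO: Selp read 4.16 and 3.70 in cKO, in set 2 and set 1, against 8.17 on both WT arrays, and Aqp1 4.14 and 4.07 in cKO against 8.24 and 9.07 in WT. Plvap and Vwf did the same, while Pecam1 and Tek were dim on all 4 arrays. Of 6 measured adipocyte markers, limma called 1 lower in cKO, Fabp4, at 4.07 and 3.38 in cKO against 10.43 and 10.13 in WT. Both cKO arrays lay above both WT arrays in 2 of the 6, Cidec and Car3, against 28.9% of all genes. Fabp4 alone had them below, and the median difference of the 6 was 0.19. The cKO array of set 1 stood apart by weak 5′ signal, where the Dap control RNA read 2.95 higher at its 3′ than at its 5′ end, against 1.74 to 1.82 elsewhere. The WT array of set 2 stood apart in the nuclear RNA Malat1, at 12.35 against 9.80 to 10.56. Differences on the other 2 arrays alone, cKO of set 2 less WT of set 1, are therefore given too; they mix genotype with set and have no test.

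Igfbp6 was clearly above the dim limit on all 4 arrays and differed alike in both sets. IGFBP6 is a secreted binding protein that prefers IGF2 over IGF1. Probe set 1417933_at read 6.97 and 7.08 in cKO, in set 2 and set 1, against 6.36 and 6.37 in WT. Both cKO arrays lay above both WT arrays, and the WT arrays differed by hardly anything. Mean levels were 7.03 ± 0.08 in cKO and 6.36 ± 0.0070 in WT (SD, n = 2 each). The cKO signal was 1.53 times that of WT in set 2 and 1.64 times in set 1. The mean difference of 0.66 (SE 0.13, 95% interval 0.33 to 0.99) had a limma adjusted p of 0.302 and an unadjusted p of 0.00375, and did not pass. Leaving out each array in turn gave differences of 0.61 to 0.72, and cKO of set 2 less WT of set 1, the arrays that did not stand apart, gave 0.60.

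Igfbp2 differed by more, at levels near the bottom of the scale. IGFBP2 is a binding protein of the extracellular space and cell surface that carries an integrin-binding RGD motif. Probe set 1454159_a_at read 5.14 and 5.46 in cKO, in set 2 and set 1, against 3.98 and 4.64 in WT. Both cKO arrays were above both WT arrays, but only the cKO array of set 1 passed the dim limit. The difference was 1.16 in set 2 and 0.82 in set 1, with a mean of 0.99 (SE 0.27, 95% interval 0.30 to 1.68, limma adjusted p = 0.357, unadjusted p = 0.0143). With every dim value raised to the limit, the difference was 0.03. It ran from 0.66 to 1.32 when each array was left out, and cKO of set 2 less WT of set 1 gave 0.50.

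Both genes belonged to a small group. At least 1.5-fold higher in cKO within both sets were 2 of 23 member probe sets, against 1.67% of all probe sets, and by each gene's brightest probe set 2 of 10 genes against 2.19% of all genes. At least 1.5-fold lower in both sets were 0 members, against 1.62% of all probe sets and 1.32% of all genes. These shares rest on 2 genes, and no test of them was made.

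**Figure D1:**
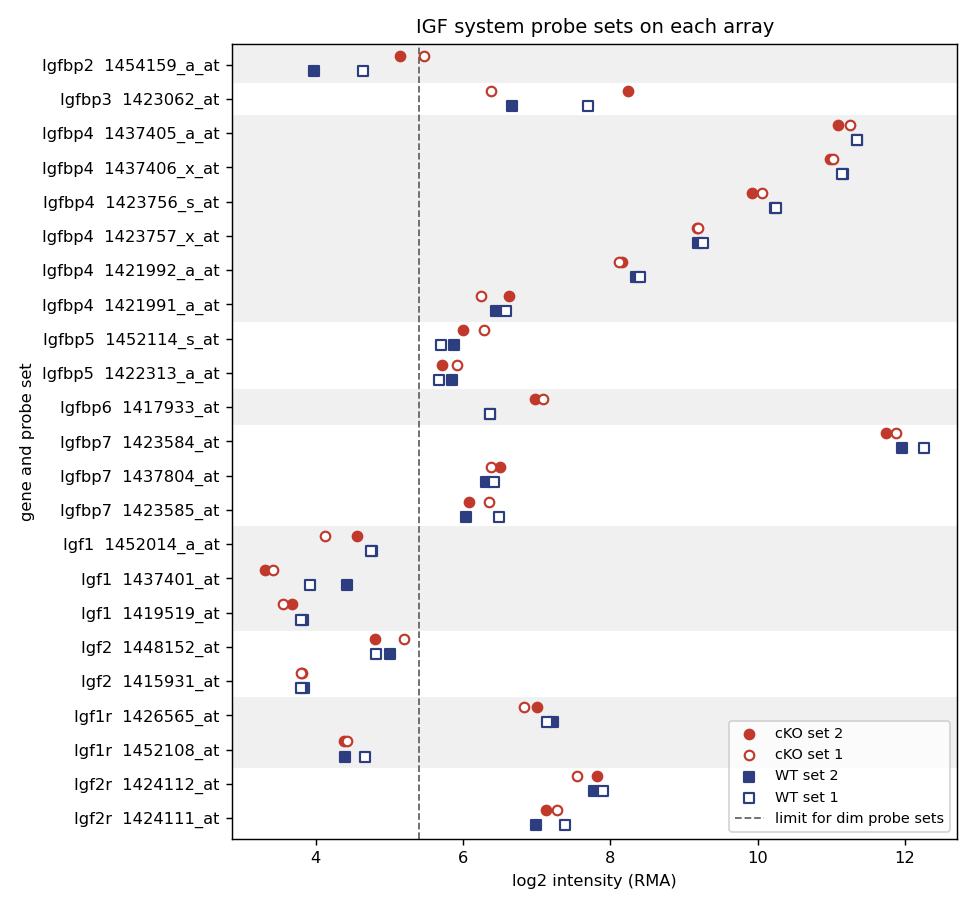
Log2 intensity of the 23 probe sets on each array, with cKO as circles and WT as squares, filled for set 2 and open for set 1; the dashed line is the dim limit of 5.40. Positions can be compared along a row and not between rows; in the Igfbp6 row both cKO points lie right of both WT points, in the Igfbp3 row they lie on either side, and all Igf1 and Igf2 points lie left of the line.

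Igfbp5, the neighbour of Igfbp2 among protein-coding genes of chromosome 1, differed less. IGFBP5 is a binding protein that also attaches to the extracellular matrix. Probe set 1452114_s_at, the brighter of 2, read 6.00 and 6.29 in cKO, in set 2 and set 1, and 5.87 and 5.70 in WT, with a mean difference of 0.36 (SE 0.16, limma adjusted p = 0.507). Both cKO arrays lay above both WT arrays there, with a gap of less than the spread within cKO. The difference ran from 0.22 to 0.50 when each array was left out, and was 0.31 on the arrays that did not stand apart. The second, 1422313_a_at, had 5.72 and 5.91 in cKO against 5.84 and 5.67 in WT. The groups overlapped there, and the mean difference was 0.06. The suffix _s_at of the brighter one marks probes that may also bind other transcripts.

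Igfbp3 showed the widest spread of all members above the dim limit. IGFBP3 is the main carrier of IGFs in blood and a p53 target that restrains growth in many cells. Probe set 1423062_at read 8.24 and 6.38 in cKO, in set 2 and set 1, against 6.67 and 7.70 in WT. The cKO array of set 2 was the highest and the cKO array of set 1 the lowest, so the WT arrays lay between them. In cKO the signal was 2.97 times that of WT within set 2 and 0.399 times within set 1. The log2 differences of 1.57 and -1.32 cancelled to a mean of 0.12 (SE 0.69, 95% interval -1.68 to 1.93, limma adjusted p = 0.966). Opposite differences of at least 1.5-fold occurred in 30 of all probe sets, or 0.147%, and in 1 of the 23 members. The gap between the set differences was 2.89, wider than in 99.9% of all probe sets. One array per genotype and set leaves no way to test it.

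The low Igfbp3 arrays were those that stood apart. The cKO array of set 1, with the weak 5′ signal, read 6.38, and the WT array of set 2, with the high Malat1, read 6.67. The part of array quality in the Igfbp3 pattern was not tested. On the other arrays, cKO of set 2 less WT of set 1 gave 0.53, a value that mixes genotype with set. Leaving out the cKO set 2 array gave -0.81 and leaving out the WT set 2 array -0.40, while leaving out the cKO set 1 array gave 1.05 and the WT set 1 array 0.64.

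The genes whose values followed Igfbp3 most closely over the 4 arrays were Sfn, Ifngr2 and Mlf1, out of 8032 genes above the dim limit. Likeness was the root mean square difference of values centred on each gene's mean, 0.37 for Sfn and 0.40 for Ifngr2 and Mlf1. Sfn, which encodes the keratinocyte protein 14-3-3 sigma, read 11.46 and 10.59 in cKO, in set 2 and set 1, against 10.42 and 11.14 in WT. Ifngr2 encodes a chain of the interferon gamma receptor, and its cKO minus WT difference was 0.58 in set 2 and -0.88 in set 1. For Mlf1, myeloid leukemia factor 1, these were 0.59 and -0.76. These likenesses rest on 4 points and carry no test. Igfbp1, which lies next to Igfbp3 on chromosome 11, was dim on all 4 arrays, at 3.01 and 3.10 in cKO and 3.22 and 2.99 in WT.

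**Figure D2:**
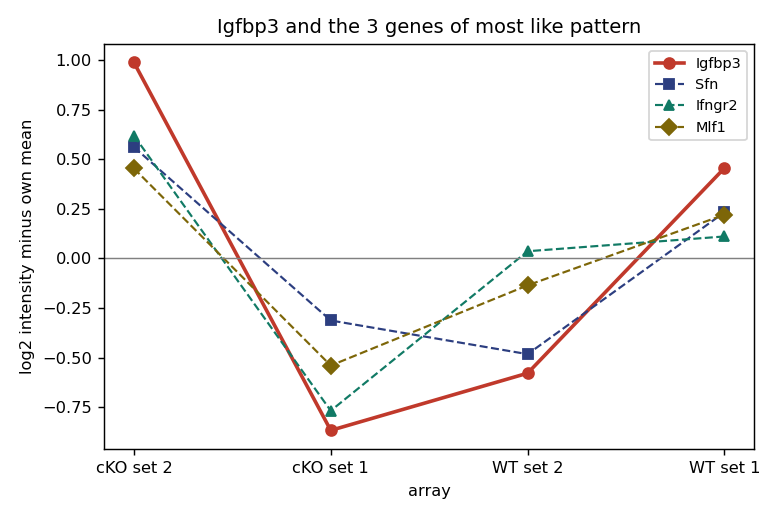
Log2 intensity of Igfbp3 and of the 3 genes of most like pattern on each array, each less its own mean over the 4 arrays. Igfbp3 is above its mean on the cKO set 2 and WT set 1 arrays and below it on the cKO set 1 and WT set 2 arrays.

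Igfbp4 was measured by 6 probe sets, more than any other member, and differed by small amounts. IGFBP4 is a secreted binding protein that blocks IGF action and is cut by the protease PAPP-A. The brightest, 1437405_a_at, read 11.09 and 11.26 in cKO, in set 2 and set 1, against 11.352 and 11.351 in WT. Both cKO arrays lay below both WT arrays there, and in 5 of the 6 probe sets. For 1437405_a_at the difference ran from -0.27 to -0.09 when each array was left out, and was -0.27 on the arrays that did not stand apart. Mean differences over the 6 ran from -0.25 to -0.05, with limma adjusted p from 0.553 to 0.917. The largest of them, in probe set 1423756_s_at, had a 95% interval of -0.58 to 0.09. The exception, 1421991_a_at, differed by 0.17 in set 2 and -0.35 in set 1. The 6 probe sets target 1 gene and are not replicates, and the suffixes _s_at and _x_at on 3 of them mark probes that may also bind other transcripts.

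Igfbp7 likewise had a bright probe set that was slightly lower in cKO. IGFBP7 is secreted into the matrix and is abundant in vessels as well as epithelia. The bright probe set, 1423584_at, read 11.75 and 11.88 in cKO, in set 2 and set 1, against 11.95 and 12.26 in WT. Both cKO arrays lay below both WT arrays, with a mean difference of -0.30 (SE 0.16, 95% interval -0.72 to 0.13, limma adjusted p = 0.567). It was -0.14 without the WT array of set 1 and -0.45 without that of set 2, and -0.52 on the arrays that did not stand apart. The 2 dimmer Igfbp7 probe sets lay between 6.04 and 6.51 with overlapping groups and mean differences of 0.07 and -0.05. Most of the 15 endothelial markers and Fabp4 were lower on the cKO arrays too, as given above. Of the 6 adipocyte markers, only Fabp4 had both cKO arrays below both WT arrays, and their median difference was 0.19. The part of these markers in the Igfbp7, Igfbp4 and Igf1 values was not tested. In such sorted bulk samples fewer cells of a type and less RNA per cell cannot be told apart.

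The ligands were at or near background throughout. Igf1 had 3 probe sets, all dim on all 4 arrays, between 3.31 and 4.76. The brightest, 1452014_a_at, read 4.56 and 4.12 in cKO, in set 2 and set 1, against 4.76 and 4.74 in WT. In all 3 both cKO arrays lay below both WT arrays, with mean differences of -0.41, -0.81 and -0.19, and limma adjusted p of 0.511, 0.342 and 0.620. The largest difference was in probe set 1437401_at, at 3.31 and 3.41 in cKO and 4.43 and 3.91 in WT (unadjusted p = 0.0122). Leaving out each array moved it between -1.06 and -0.55, and the brightest between -0.63 and -0.19. On the arrays that did not stand apart the values were -0.60 for 1437401_at and -0.18 for the brightest. With no value above the limit, these differences are not shown to come from Igf1 transcripts.

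Igf2, an imprinted growth factor gene of the embryo, had 2 probe sets that were dim on all 4 arrays. The brighter, 1448152_at, read 4.81 and 5.19 in cKO, in set 2 and set 1, against 5.01 and 4.82 in WT, and the groups overlapped. The other stayed within 3.80 to 3.83 on every array. Markers of fibroblasts, a usual source of IGF1 in skin, were mixed. Of 12, 6 were dim on all 4 arrays, Pdgfra and Lum among them, and 6 had a mean above the limit. The summed linear intensity of the 12 was 15377 and 15490 in cKO and 14454 and 9336 in WT. Postn made up most of that sum, with a lowest reading of 12.85. Thy1 read 7.93 and 8.60 in cKO, in set 2 and set 1, against 6.38 and 7.24 in WT, while Vcan read 4.99 and 5.24 in cKO against 6.61 and 6.50 in WT. In 5 of the 12 both cKO arrays lay above both WT arrays, against 28.9% of all genes. In 3 of the 12 they lay below, Vcan and Dcn among these, against 16% of all genes.

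Igf1r was above the limit in 1 of its 2 probe sets. That probe set, 1426565_at, read 7.01 and 6.82 in cKO, in set 2 and set 1, against 7.22 and 7.14 in WT. Both cKO arrays lay below both WT arrays, with a mean difference of -0.26 (SE 0.14, 95% interval -0.62 to 0.09, limma adjusted p = 0.553). It ran from -0.36 to -0.17 when each array was left out, and was -0.13 on the arrays that did not stand apart. The second probe set was dim, between 4.38 and 4.67, and overlapped between groups.

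Igf2r did not separate the genotypes in either probe set. The brighter, 1424112_at, read 7.81 and 7.55 in cKO, in set 2 and set 1, against 7.78 and 7.90 in WT, with a mean difference of -0.16 (SE 0.15, 95% interval -0.56 to 0.24, limma adjusted p = 0.726), and -0.08 on the arrays that did not stand apart. The other, 1424111_at, had 7.13 and 7.27 in cKO against 6.995 and 7.377 in WT, with a mean difference of 0.01 (SE 0.18, 95% interval -0.45 to 0.48), and -0.25 on those arrays.

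Over the 23 probe sets, limma called 0 at an adjusted p under 0.05, against 0.0343% of all probe sets, of which 0.00491% were higher and 0.0294% lower in cKO. With the set as a block, which pairs cKO with WT, it again called 0 members, against 0.00981% of all, and the adjusted p was 0.267 for Igfbp6 and 0.2501 for Igfbp2. At an unadjusted p under 0.05 there were 3 members (Igfbp6, Igfbp2 and 1 of Igf1), or 13.0%, against 10.9% of all. Both cKO arrays lay above both WT arrays in 3, against 25.7% of all, and below in 10, against 17.3%. Of those 10, 5 were Igfbp4 and 3 Igf1 probe sets. Counted by gene, the lower side held 4 of 10 (Igfbp4, Igfbp7, Igf1 and Igf1r) against 16% of all genes, and the higher side 3 of 10 (Igfbp2, Igfbp5 and Igfbp6) against 28.9%. The median difference was -0.09 over the members and 0.03 over all probe sets.

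**Figure D3:**
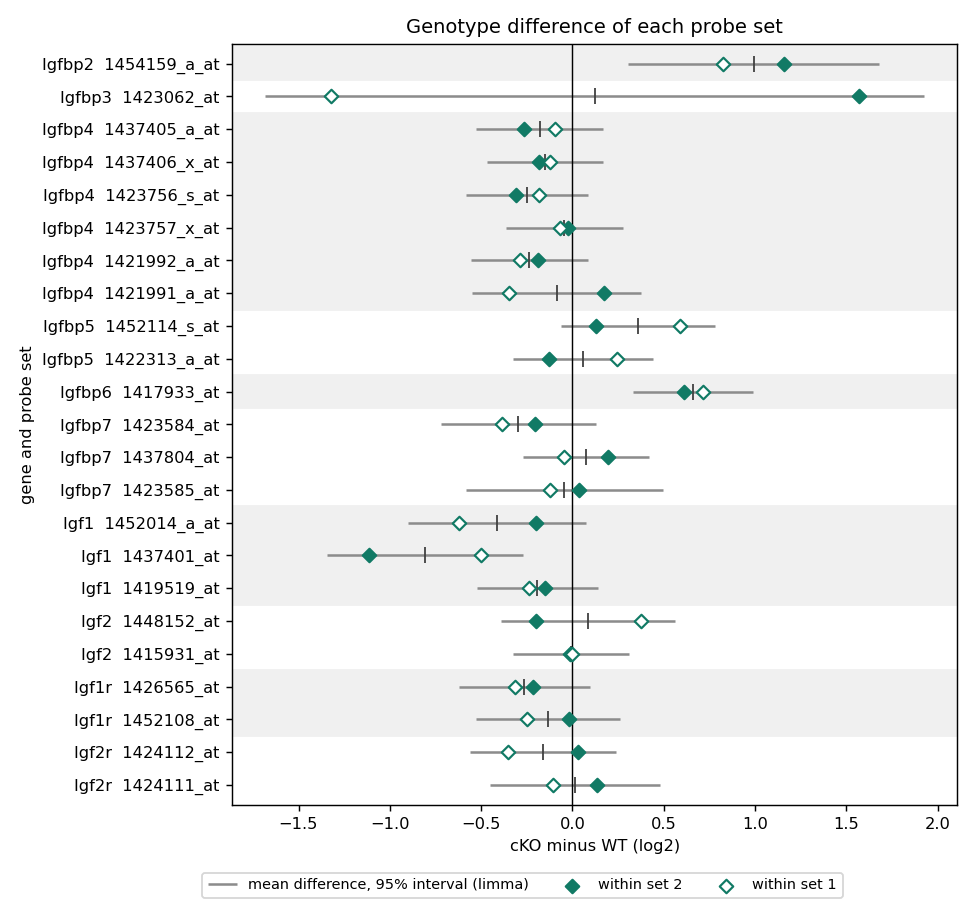
Difference cKO minus WT on the log2 scale for each probe set, as filled diamonds within set 2 and open diamonds within set 1, with the mean as a tick and limma's 95% interval as a bar. Igfbp2 and Igfbp6 lie right of 0 in both sets, the Igfbp3 diamonds lie at 1.57 and -1.32, and the bars of all rows but Igfbp2, Igfbp6 and 1 of Igf1 cross 0.

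Set 2 was also compared with set 1 over both genotypes, which asks whether the state named in the labels goes with a shift of the IGF system. limma called 0 of the 23 probe sets, as it called 0 of all 20380, and every member had an adjusted p of 1. At an unadjusted p under 0.05 there were 0 members, against 3.62% of all probe sets. The largest difference was -0.49 for Igfbp2 (SE 0.48), with means of 4.56 ± 0.82 in set 2 and 5.05 ± 0.58 in set 1 (SD, n = 2 each). Igfbp3 differed by 0.41 (SE 0.68, 95% interval -1.37 to 2.19). Igfbp6 differed by -0.06 (SE 0.33) and the bright Igfbp4 probe set by -0.09 (SE 0.16).

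Both set 2 arrays lay below both set 1 arrays in 3 member probe sets, against 16.9% of all, and above in 1, against 13.8%. The lower ones were 1 each of Igfbp7 (1423585_at, the dimmest of its 3), Igf2r (1424111_at) and Igf1r (1452108_at, dim on all 4 arrays). The higher one was a dim probe set of Igf2. The other Igf1r probe set, above the limit, differed by 0.14, and the other Igfbp7 ones by -0.22 and 0.01. The Igf2r probe set read 7.13 and 6.995 in set 2, in cKO and WT, and 7.272 and 7.377 in set 1 (difference -0.26, SE 0.15, 95% interval -0.64 to 0.12). The other Igf2r probe set differed by 0.08, so the gene as a whole gave no one direction.

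Proteases that cut IGF binding proteins included the widest genotype differences of the pathway outside its members. Of 14 measured genes of the list of IGFBP proteases and carriers, 8 were above the dim limit, 0 passed limma's test (2 at an unadjusted p under 0.05, where 11.8% of all genes lay), 5 had both cKO arrays above both WT arrays (28.9% of all genes did) and 1 had them below (16% of all genes). Htra1, a secreted serine protease that cuts IGFBP5 among other substrates, read 11.32 and 11.72 in cKO, in set 2 and set 1, against 9.43 and 10.31 in WT. Both cKO arrays were above both WT arrays, by 1.90 and 1.41 within the sets, and the mean difference of 1.65 (SE 0.34) did not pass (limma adjusted p = 0.310). The second Htra1 probe set differed by 1.75. On the arrays that did not stand apart Htra1 differed by 1.01.

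Mmp2, a matrix metalloprotease that can cut IGFBPs, read 9.16 and 9.32 in cKO, in set 2 and set 1, against 8.46 and 7.32 in WT (difference 1.35, SE 0.39, limma adjusted p = 0.386). Pappa, which encodes the IGFBP4 protease PAPP-A, was the one with lower cKO arrays. It read 5.96 and 5.62 in cKO, in set 2 and set 1, against 7.08 and 6.20 in WT (difference -0.85, SE 0.33, limma adjusted p = 0.462). All 4 Pappa values were above the dim limit, the cKO ones by little. The arrays that did not stand apart gave 1.85 for Mmp2 and -0.23 for Pappa. The list's median difference was 0.11, and 0.05 over the brightest probe sets of all 12393 genes.

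The receptor adaptors and the PI3K and AKT cascade stayed close to 0 as a list, with a median of 0.04 over 29 measured genes. limma's test was passed by 0 (2 at an unadjusted p under 0.05, Foxo3 and Pik3r1, against 11.8% of all genes), 7 had both cKO arrays above both WT arrays, against 28.9% of all genes, and 6 had them below, against 16%. Foxo3, a transcription factor that AKT holds out of the nucleus, read 9.71 and 9.99 in cKO, in set 2 and set 1, against 8.82 and 8.95 in WT (difference 0.96, SE 0.16, limma adjusted p = 0.294). By each gene's brightest probe set, Foxo3 was the 1 gene of the list at least 1.5-fold higher in both sets. Pik3r1, a regulatory subunit of PI3K, read 9.28 and 9.61 in cKO, in set 2 and set 1, against 9.01 and 8.39 in WT (difference 0.74, limma adjusted p = 0.433). A second Pik3r1 probe set was at least 1.5-fold higher in both sets, by 0.84 in set 2 and 0.65 in set 1 (limma adjusted p = 0.493). The remaining Pik3r1 probe set differed by 0.27 in set 2 and 0.60 in set 1 (limma adjusted p = 0.621). Irs1, an adaptor of the insulin and IGF1 receptors, had differences of -0.44 in set 2 and -0.27 in set 1 (limma adjusted p = 0.509). The arrays that did not stand apart gave 0.76 for Foxo3, 0.89 for Pik3r1 and -0.57 for Irs1, each by its brightest probe set.

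IGFBP-related proteins share the N-terminal domain of the family and bind IGFs weakly or not at all. Of 10 measured genes, 3 were above the dim limit and 0 passed limma's test (3 at an unadjusted p under 0.05, Ccn2, and Ccn3 and Kazald1 with means below the limit, against 11.8% of all genes). Ccn2, a matricellular protein and YAP target, had the widest difference, 1.21 in set 2 and 1.94 in set 1. Ccn1 gave 0.86 and 0.39, and Crim1 -0.18 and -0.26, while the second Crim1 probe set above the limit gave -0.13 and 0.23. The arrays that did not stand apart gave 1.02 for Ccn2, -0.0070 for Ccn1 and 0.21 for Crim1. In the mannose 6-phosphate pathway, Gnptab, which helps to make the tag that Igf2r recognises, read 8.454 and 8.463 in cKO, in set 2 and set 1, against 8.22 and 8.26 in WT (difference 0.22, SE 0.12, limma adjusted p = 0.577). M6pr, the smaller receptor of that tag, differed by 0.03, and limma's test was passed by 0 of both genes, also unadjusted. Of 3 measured genes of the Igf2 locus and of IGF2 mRNA-binding proteins, Igf2bp1 and Igf2bp3 were dim on all 4 arrays, and Ins2 differed by -0.02; limma called 0 of the 3, and 0 had an unadjusted p under 0.05.

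**Figure D4:**
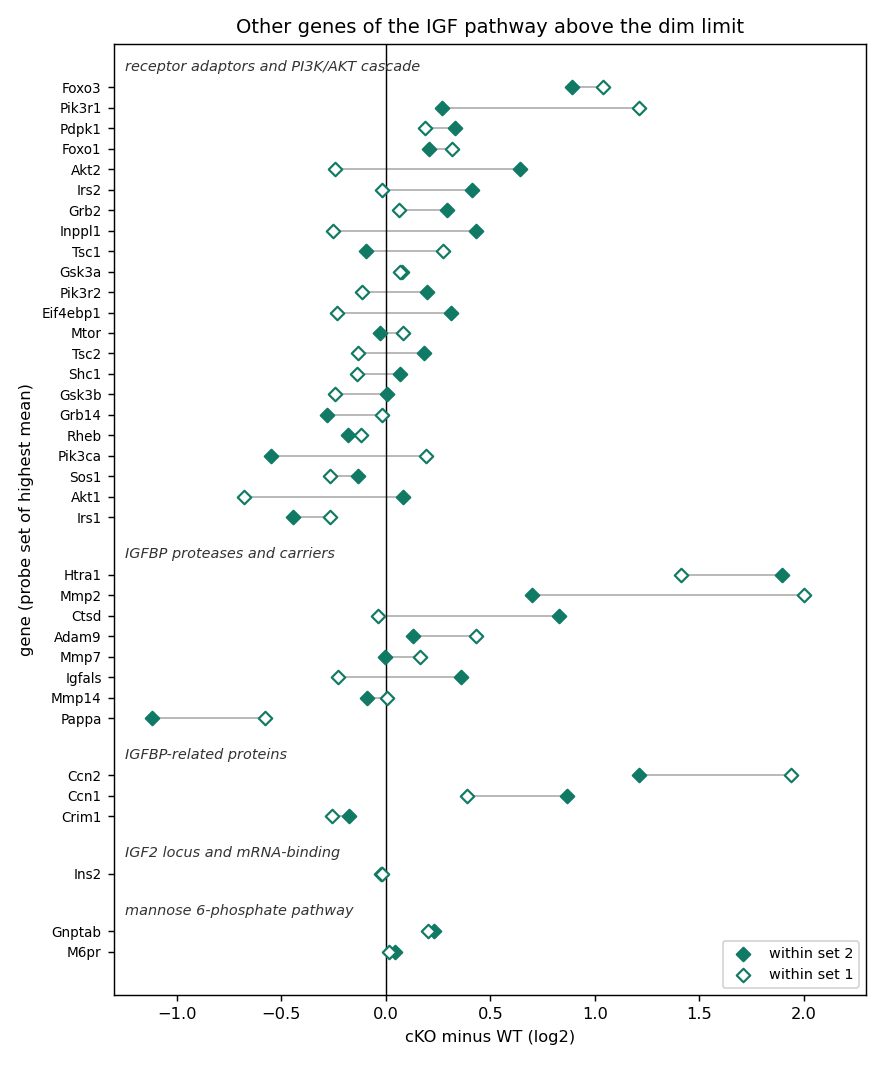
Difference cKO minus WT on the log2 scale for the other genes of the IGF pathway above the dim limit, by list, as filled diamonds within set 2 and open diamonds within set 1. Htra1, Mmp2, Ccn2 and Foxo3 lie right of 0 in both sets and Pappa left of 0 in both, while most genes of the receptor cascade lie around 0.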

How the data were processed

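Arrays of the Affymetrix kind were hybridised with RNA labelled from 2 µg of total RNA, per the labels' protocols, and 4 were used. As deposited, each value is an intensity after RMA (no version is named), per the submitters' processing notes. The values ran from 5.29 to 25561, were read as a linear scale and were put on log2 here. No detection call comes with them, and the small number of arrays limits precision.

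Of 22690 probe sets, 20380 had 1 symbol in the platform annotation, 691 had several, 1555 had none and 64 were controls. The 20380 were fitted without a filter on level in limma (version 3.58.1, R version 4.3.3), by lmFit and eBayes with no covariate, Benjamini-Hochberg adjustment and a threshold of 0.05, for cKO against WT and for set 2 against set 1. Groups came from the titles. Symbols of all 23 member probe sets matched RefSeq by gene identifier. The code of the model was run on simulated data as a check, which does not give its power at the differences seen in the members. Members and lists were chosen with earlier results of these data known.

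The titles number 1 cKO and 1 WT array alike, and the descriptions give each set a state, so the set was read as pairing arrays. Deviations of same-numbered arrays correlated with r = 0.211 across probe sets. Named genes were the members, Tbx1, in each pathway list the genes that passed or else the 3 above the dim limit with the largest mean difference, and the 3 genes most like a member that was above the limit and ranged over at least 1. Marker genes named for a cell type were chosen after their values were seen. Alternatives were another variance model, the set as a block, median centring, level filters, 1 probe set or the mean per gene, other thresholds, and leaving out each array. The pair cKO of set 2 and WT of set 1 was added after seeing the data.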

Additional observations from a re-analysis of the deposited data

Results flagged for a closer look

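Igfbp3 differed between cKO and WT in opposite directions in the sets, by 1.57 in set 2 and -1.32 in set 1 on the log2 scale, a gap of 2.89. It was singled out because each set's difference was at least 1.5-fold and the directions were opposite. With 1 array per genotype and set, the difference between sets was not tested. The lower array of each pair was the one that stood apart, cKO in set 1 and WT in set 2, and the part of this was not tested.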

How the results depend on the processing

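limma called 0 member probe sets under every alternative with a test, in both comparisons, and the lowest adjusted p of any member was 0.159 between genotypes and 0.516 between sets. Over all probe sets the 7 genotype calls became 19 with a variance trend and robust fitting, 11 at a threshold of 0.10, 2 with the set as a replicate block, which changed no member's call, and 0 when any 1 array was left out. The count of 2 members at least 1.5-fold higher in both sets became 1 without probe sets below the 40th percentile, 1 with 1 probe set per gene above it, and 0 at 2-fold. Between sets, the sign turned for the gene mean of Igf1r (-0.012) and Igf2r (-0.093), and for Igfbp7 probe set 1437804_at with median-centred arrays (-0.0044). The causes were not tested. With 2 arrays per group, leaving 1 out assumes that the lone array varies like the others.

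Leaving out each array in turn gave genotype differences on both sides of 0, from -0.27 to 0.0049 for Igf1r probe set 1452108_at, -0.026 to 0.0098 for Igf2 probe set 1415931_at, -0.11 to 0.28 for Igf2 probe set 1448152_at, -0.18 to 0.21 for Igf2r probe set 1424111_at, -0.81 to 1.05 for Igfbp3 probe set 1423062_at, -0.28 to 0.11 for Igfbp4 probe set 1421991_a_at, -0.041 to 0.16 for Igfbp5 probe set 1422313_a_at and -0.27 to 0.18 for Igfbp7 probe set 1423585_at. Between sets the ranges that held 0 were -0.047 to 0.19 for Igf1 probe set 1419519_at, -0.35 to 0.76 for Igf1 probe set 1437401_at, -0.079 to 0.54 for Igf1 probe set 1452014_a_at, -0.021 to 0.29 for Igf1r probe set 1426565_at, -0.29 to 0.086 for Igf2 probe set 1448152_at and -0.10 to 0.25 for Igf2r probe set 1424112_at. They were also -1.07 to 0.0899 for Igfbp2 probe set 1454159_a_at, -0.37 to 1.195 for Igfbp3 probe set 1423062_at, -0.047 to 0.30 for Igfbp4 probe set 1421991_a_at, -0.16 to 0.13 for Igfbp4 probe set 1421992_a_at, -0.22 to 0.086 for Igfbp4 probe set 1423756_s_at and -0.22 to 0.048 for Igfbp4 probe set 1437405_a_at. The others were -0.10 to 0.0795 for Igfbp4 probe set 1437406_x_at, -0.13 to 0.11 for Igfbp5 probe set 1422313_a_at, -0.35 to 0.24 for Igfbp5 probe set 1452114_s_at, -0.42 to 0.30 for Igfbp6 probe set 1417933_at and -0.085 to 0.11 for Igfbp7 probe set 1437804_at. Low signal and 2 arrays per group limit what can be told of the ligands and of Igfbp2.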
